A study of Mus musculus with 13 samples.

Results

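The crypt proliferation and cell cycle genes are 35 genes that dividing cells of the intestinal crypt need, and they were followed here in the proximal small intestine of mice fed ezetimibe. They were listed by name and known function, with earlier results of these data known, and no measured value enters the rule: 11 take part in DNA replication, 20 in mitosis, and 4 mark stem or progenitor cells of the crypt. Of the 25697 array probes, 53 carried a member's symbol. They covered 32 members, and 25 members had a probe bright enough to test, among 8974 tested genes in all. No probe of Mki67, Aurkb or Kif20a was analysed here.

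The arrays came from 13 male C57BL/6J mice, 1 array for each mouse. The 8 mice of the Control group ate regular chow, and the 5 mice of the Eze group ate chow with 0.005% ezetimibe, a drug that lowers cholesterol uptake by binding the sterol transporter NPC1L1 in the enterocyte brush border. The labels give no other agent, allele or diet for either group, and the sources used here do not state the mice's age or how long they were fed. Total RNA of the whole tissue piece was measured, so a signal is the sum over crypt, villus and all other cells. In such bulk RNA, fewer cells of a type and less RNA per cell cannot be told apart.

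The small intestine's epithelium is renewed from crypts, pits between the villi in which Lgr5-marked stem cells and their transit-amplifying daughters divide before the cells move onto the villus and differentiate. Wnt signals from Paneth cells and from the surrounding stroma keep the crypt base dividing. In S phase the MCM2 to MCM7 helicase opens the DNA while ribonucleotide reductase, thymidylate synthase and thymidine kinase supply nucleotides. In mitosis CDK1 with cyclin B, the Aurora and Polo-like kinases, the spindle checkpoint and the anaphase-promoting complex drive and guard chromosome segregation. E2F factors switch on many replication genes, and the DREAM and MuvB complexes act on many mitotic genes through CHR elements, often beside CCAAT boxes bound by NF-Y.

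Slide 1 carried 4 Control and 2 Eze arrays, and slide 2 carried 4 Control and 3 Eze arrays. The median probe signal was 146.9 to 152.8 on slide 1 and 120.7 to 127.9 on slide 2, and 11085 to 12380 probes were detected on an array. After quantile normalisation, 54.8% of tested genes still differed between the slides, and 10 of the 25 tested members did, 8 of them with higher values on slide 2. Levels below are therefore log2 intensities from which the modelled difference between slides was subtracted, and each comparison has slide in the model unless 1 slide is named. Of the absorptive enterocyte markers, 11 of 13 with a probe were detected on all 13 arrays, while the probes of Fabp1 and Fabp2 were detected on none. The crypt markers were unevenly measured: Cdca7 and Olfm4 were detected on all 13 arrays, Lgr5 on 4 and Ascl2 on 1. With 13 arrays, their number sets how precise each value can be.

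The members' promoters were read from RefSeq's promoter table of the assembly GRCm38.p6, which gives 250 bases before and 50 bases after a gene's start. It held 31 promoters for 30 of the 35 members, 2 of them for Mcm7. A set of 6 is shown as examples of E2F, CHR and CCAAT letters, and because these genes include the members named most often below. CHR letters were commoner in mitosis promoters and E2F letters in replication promoters, but neither was in every promoter of its class. The replication genes shown are Mcm6, at chr1:128359656-128359955 on the minus strand, and Rrm2, at chr12:24708004-24708303 on the plus strand. The mitosis genes shown are Cdk1, at chr10:69352863-69353162 on the minus strand, Plk1, at chr7:122159185-122159484 on the plus strand, and Cenpa, at chr5:30666636-30666935 on the plus strand. Cdca7, a crypt progenitor gene, is at chr2:72475969-72476268 on the plus strand. Each runs 5′ to 3′ in the direction of the gene, and capitals mark a match on either strand to the E2F, CHR or CCAAT letters given after the sequences.
Mcm6: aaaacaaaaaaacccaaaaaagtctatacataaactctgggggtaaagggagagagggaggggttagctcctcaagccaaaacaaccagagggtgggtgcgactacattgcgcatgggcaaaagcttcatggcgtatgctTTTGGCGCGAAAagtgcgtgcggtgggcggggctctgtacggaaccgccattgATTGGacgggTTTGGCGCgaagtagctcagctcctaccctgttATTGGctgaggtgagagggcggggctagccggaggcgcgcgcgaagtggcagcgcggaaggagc
Rrm2: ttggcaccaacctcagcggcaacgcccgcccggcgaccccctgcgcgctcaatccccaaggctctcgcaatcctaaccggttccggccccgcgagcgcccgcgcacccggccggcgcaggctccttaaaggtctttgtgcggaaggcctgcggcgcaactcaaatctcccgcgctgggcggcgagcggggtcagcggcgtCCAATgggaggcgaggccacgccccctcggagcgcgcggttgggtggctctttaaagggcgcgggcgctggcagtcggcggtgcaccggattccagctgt
Cdk1: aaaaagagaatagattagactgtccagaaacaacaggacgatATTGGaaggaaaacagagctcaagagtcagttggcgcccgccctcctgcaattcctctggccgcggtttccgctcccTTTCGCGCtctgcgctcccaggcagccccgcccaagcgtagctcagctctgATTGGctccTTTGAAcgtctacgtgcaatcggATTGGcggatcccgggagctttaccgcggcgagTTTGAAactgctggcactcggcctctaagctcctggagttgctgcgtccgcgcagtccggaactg
Plk1: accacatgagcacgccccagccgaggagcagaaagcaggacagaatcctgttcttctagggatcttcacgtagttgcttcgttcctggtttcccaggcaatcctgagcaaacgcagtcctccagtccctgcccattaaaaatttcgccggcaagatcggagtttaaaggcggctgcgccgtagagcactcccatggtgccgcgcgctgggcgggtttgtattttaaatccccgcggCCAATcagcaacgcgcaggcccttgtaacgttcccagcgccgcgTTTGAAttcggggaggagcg
Cenpa: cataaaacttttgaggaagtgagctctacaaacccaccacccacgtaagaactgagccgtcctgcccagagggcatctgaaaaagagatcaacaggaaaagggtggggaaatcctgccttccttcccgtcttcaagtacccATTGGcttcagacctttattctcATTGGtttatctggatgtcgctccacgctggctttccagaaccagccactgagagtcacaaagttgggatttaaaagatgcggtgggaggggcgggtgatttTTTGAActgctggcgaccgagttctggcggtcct
Cdca7: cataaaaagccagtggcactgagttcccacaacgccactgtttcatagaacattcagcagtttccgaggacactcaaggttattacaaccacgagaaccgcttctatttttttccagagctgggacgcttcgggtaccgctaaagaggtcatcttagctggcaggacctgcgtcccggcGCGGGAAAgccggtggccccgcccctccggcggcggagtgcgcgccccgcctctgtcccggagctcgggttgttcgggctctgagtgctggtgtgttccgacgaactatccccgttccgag

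Searches covered both strands. The E2F letters were TTTCCCGC, TTTCGCGC, TTTGCCGC and TTTGGCGC, the CHR was TTTGAA, the NF-Y box was CCAAT, and the TCF/LEF letters were CTTTGAA or CTTTGAT, the first of which contains a CHR. Counting from the gene's start, the Cdk1 promoter held CHR letters at positions -71 to -66 and -15 to -10 of the plus orientation, the first of them inside a CTTTGAA. The Plk1 promoter held them at positions 31 to 36 and that of Cenpa at positions 17 to 22. The Mcm6 promoter held no CHR and 3 E2F matches, of which the first and second overlap on opposite strands, while Rrm2 had a CCAAT alone. Cdca7 held a single E2F match, on the minus strand at positions -71 to -64.

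Across the promoters read, a CHR was found in 13 of 17 mitosis promoters (76.5%) and in 1 of 11 replication promoters (9.09%), against 17.9% of the 32851 promoters of the table. All 13 of those mitosis promoters also held a CCAAT, a pair found in 6.95% of all promoters. E2F letters were found in 4 of 11 replication promoters (36.4%) and in 1 of 17 mitosis promoters (5.88%), against 2.26% of all. CCAAT alone was common to both classes, in 9 of 11 replication and 15 of 17 mitosis promoters, or 81.8% and 88.2%, against 37.4% of all. TCF/LEF letters were found in 4 of 17 mitosis promoters (23.5%), in none of the 11 replication or 3 crypt promoters, and in 8.65% of all. Base composition differs too, with a median of 57.7% G or C in member promoters and 52.7% in all promoters. A match is a run of letters and was not tested as a binding site.

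Promoters of further genes of the same processes were searched for the same letters. Of 43 promoters of further mitosis genes, 30 held a CHR (69.8%), 30 a CCAAT (69.8%) and 4 TCF/LEF letters (9.30%). Of 43 promoters of further replication genes, 11 held E2F letters (25.6%), 22 a CCAAT (51.2%) and 9 a CHR (20.9%). Among 24 promoters of further crypt and Wnt pathway genes, 1 held E2F letters (4.17%) and none a CHR. TCF/LEF letters were in 2 of them (8.33%, against 8.65% of all promoters) and a CCAAT in 9 (37.5%, against 37.4%).

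The comparison of interest was Eze against Control. No tested member passed the threshold: 0 of 25 had a Benjamini-Hochberg adjusted p under 0.10 in limma, and 0 of 25 had an unadjusted p under 0.05 in either direction. Among all tested genes 0.279% passed the adjusted threshold (0.252% of probes), and at the unadjusted one 2.36% were lower and 3.5% higher in Eze. The members' adjusted p ran from 0.8292 for Cdca7 to 0.995 for Bub1b. Their log2 fold changes, Eze over Control, lay between -0.26 for Cdca7 and 0.20 for Rrm2. Of the 25, 24 were below 0, as were 49.9% of all tested genes, and Rrm2 was the exception. The median member stood at -0.17, and the median of all tested genes at 0.00031. Of the tested members 24 were detected on every array, so that Mcm7 alone entered through the group in which it was brighter. With only probes detected at p under 0.01 on all arrays, which leaves Mcm7 out, 23 of 24 members were below 0 and their median was -0.17.

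The members varied together from mouse to mouse, as described further on, so the 24 values below 0 are not 24 separate observations. With median scaling the members' median was -0.061 and 20 of 25 were below 0, but the median of all genes was 0.094 there. That setting moved genes upward in general, and the members' median still lay below that of all genes. In the authors' processed values the members' median shrank to -0.069. Once the array's position on its slide entered the model it was -0.078, with 19 of 25 below 0. It was -0.29 without Eze1, -0.10 without Eze2 and -0.085 without Eze4. Without Eze1, 5 members were lower and 0 higher at an unadjusted p under 0.05 in limma. Without Eze2, 0 were lower and 1 was higher, and without Eze4 there were 0 in either direction. No member passed the adjusted threshold in these fits. The matching shares of all genes were not counted in those fits, so these counts of members cannot be set against them.

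**Figure D1:**
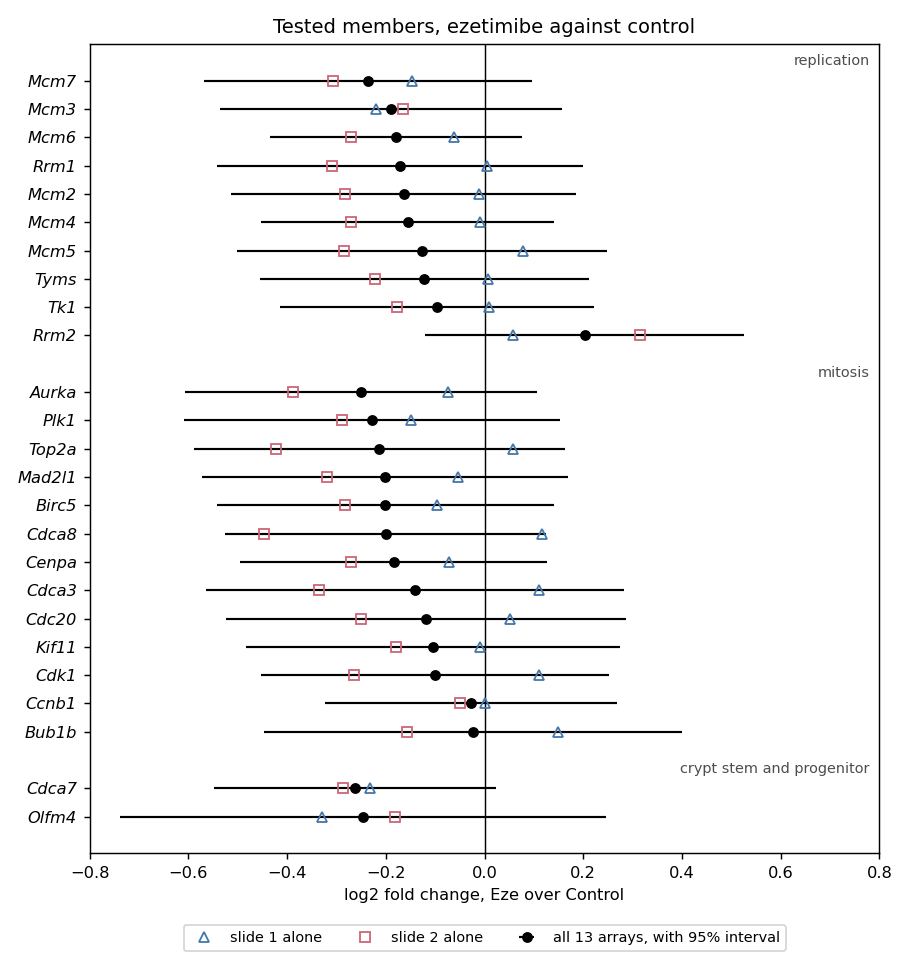
Log2 fold change, Eze over Control, of the 25 tested members, one row for each gene in 3 classes. Black points with bars are the fit over all 13 arrays with its 95% interval, blue triangles are slide 1 alone and red squares slide 2 alone. Every black bar crosses 0, and the triangles gather nearer to 0 than the squares.

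DNA replication genes came first in the order of the cell cycle. Of 11 listed, 10 were tested, none passed the test, 9 had log2 fold changes below 0, and the median was -0.16. Under median scaling Tk1 stood at 0.027, where the median of all genes was 0.094. The 6 helicase subunits were all tested. Mcm2, a subunit that also binds histones, had Control levels from 7.02 to 8.05 with a median of 7.53, and Eze1 to Eze5 stood at 7.83, 7.11, 7.49, 7.05 and 7.36. All 5 Eze arrays fell inside the Control range. The fold change of Mcm2 was -0.16 ± 0.16 (log2, SE, 8 against 5 arrays), with a limma adjusted p of 0.920.

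Mcm5 spanned 8.28 to 9.12 in Control, with a median of 8.81, and read 9.17, 8.35, 8.62, 8.18 and 8.80 on Eze1 to Eze5. The highest and the lowest of the 13 arrays were both Eze arrays. Its log2 fold change was -0.13 ± 0.18 (SE), with a 95% interval from -0.50 to 0.25 and a limma adjusted p of 0.948. Mcm6, which had the smallest standard error among the tested helicase probes used, had Control levels of 7.94 to 8.54, median 8.33, and Eze levels of 8.39, 7.98, 7.99, 8.00 and 8.18. Every Eze array except Eze1 lay under the Control median, yet none lay under the lowest Control array. The fold change of Mcm6 was -0.18 ± 0.12, the interval ran from -0.43 to 0.075, and the limma adjusted p was 0.863. Its 2 other tested probes gave -0.13 and -0.073, both on the same side of 0.

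For Mcm3 the fold change was -0.19 ± 0.16 with a limma adjusted p of 0.909, and Eze levels (5.40 to 5.90) overlapped Control levels (5.43 to 6.29). Mcm7 stood at -0.24 ± 0.16 with a limma adjusted p of 0.861. It is the dimmest tested member by detection: its probe was detected on 6 of 8 Control and 2 of 5 Eze arrays, so part of its levels are near background. The probe entered the test through Control, the group in which it was brighter, so its value carries no weight. Control levels of Mcm7 reached from 4.65 to 5.71 and Eze levels from 4.75 to 4.95, a narrower band within the Control range. Mcm4 completed the helicase with -0.16 ± 0.14. Only 1 of the 3 Mcm4 probes was detected on any array, and it was detected on all 13.

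The nucleotide supply genes did not share 1 sign. Rrm2, the S-phase subunit of ribonucleotide reductase, had Control levels of 6.30 to 6.70 with a median of 6.43 and Eze levels of 6.96, 6.20, 7.03, 6.37 and 6.82 on Eze1 to Eze5. On 3 Eze arrays (Eze1, Eze3 and Eze5) Rrm2 was above every Control array, and on Eze2 it was below all of them. Its fold change was 0.20 ± 0.15, the interval ran from -0.12 to 0.53 and the limma adjusted p was 0.884. A second probe of Rrm2 gave 0.21 ± 0.18. Rrm1, which encodes the large catalytic subunit of the same enzyme, had -0.17 ± 0.17, and its Eze arrays (7.08 to 7.93) overlapped its Control arrays (7.18 to 8.12).

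Tyms, thymidylate synthase, spanned 7.29 to 8.14 in Control, with a median of 7.61, and read 8.03, 7.18, 7.64, 7.37 and 7.37 on Eze1 to Eze5. Its values were as mixed as those of Mcm5: Eze1 was near the top and Eze2 was lowest of all. The fold change was -0.12 ± 0.16 with a limma adjusted p of 0.941. For Tk1, thymidine kinase, it was -0.096 ± 0.15. Pcna, the sliding clamp of the DNA polymerases, was detected on 1 array, in the Eze group, and was not tested. Probes of Tyms ranged from detection on all 13 arrays to detection on none, so a dim probe does not show that its gene was silent.

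Mitosis genes came next. Of 20 listed, 17 had a probe and 13 were tested. None of the 13 passed the test, all 13 had log2 fold changes below 0, and the median was -0.18. Under median scaling Bub1b, Ccnb1 and Cdc20 stood at 0.024, 0.010 and 0.0068, where the median of all genes was 0.094. Top2a, the topoisomerase that untangles sister chromatids, had Control levels of 7.83 to 8.62, median 8.22, and Eze levels of 8.64, 7.59, 8.05, 7.67 and 7.72. Eze1 exceeded every Control array and 3 Eze arrays, Eze2, Eze4 and Eze5, lay under all of them. The fold change of Top2a over all arrays was -0.21 ± 0.18, with an interval from -0.59 to 0.16 and a limma adjusted p of 0.903.

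Cdk1, the kinase that starts mitosis and which the files name Cdc2a, had Control levels from 7.20 to 7.95 with a median of 7.67. On Eze1 to Eze5 it read 8.15, 7.23, 7.61, 7.42 and 7.34. Eze1 was the highest array of all 13, and the other 4 Eze arrays lay under the Control median. The fold change was -0.10 ± 0.17 with a limma adjusted p of 0.959. Its partner Ccnb1, cyclin B1, stood at -0.027 ± 0.14 with an interval from -0.32 to 0.27 and a limma adjusted p of 0.987. A second Ccnb1 probe had 0.062 ± 0.18. Ccna2, Ccnb2 and Bub1 were detected on 0, 1 and 2 arrays and were not tested, nor was Ube2c, detected on 1.

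Plk1, the Polo-like kinase of mitotic entry and spindle assembly, had Control levels of 7.25 to 8.47, median 7.84, and Eze levels of 7.77, 7.61, 7.58, 7.42 and 7.81. All 5 Eze arrays were below the Control median but above its lowest array. The fold change was -0.23 ± 0.18 with a limma adjusted p of 0.885. Aurka, the Aurora kinase of the spindle poles, had the lowest value of the mitosis genes, -0.25 ± 0.17 with an interval from -0.61 to 0.11 and a limma adjusted p of 0.864. Its Eze arrays read 7.47, 7.02, 7.12, 6.74 and 7.28 against Control levels of 6.85 to 7.87, so that only Eze4 left the Control range. Cdca8, borealin of the chromosomal passenger complex, had -0.20 ± 0.15 with a limma adjusted p of 0.884. Birc5, survivin of the same complex, had -0.20, -0.29 and -0.23 by 3 probes.

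Cenpa, the histone variant that marks the centromere, had Control levels of 9.54 to 10.34, median 9.81, and Eze levels of 10.06, 9.52, 9.59, 9.50 and 9.90. Eze2 and Eze4 lay just under the lowest Control array and the others inside the range. The fold change of Cenpa was -0.18 ± 0.15 with a limma adjusted p of 0.890. The spindle checkpoint genes Mad2l1 and Bub1b had -0.20 ± 0.17 and -0.023 ± 0.20. Cdc20, the checkpoint's target and an activator of the anaphase-promoting complex, had -0.12 ± 0.19, and its 3 other tested probes gave -0.19, -0.24 and -0.20. The last of these was detected on 4 Control arrays and 1 Eze array. It entered the test through the group in which it was brighter, so its value carries no weight. Cdca3 stood at -0.14 ± 0.20, and Kif11, the motor that pushes the spindle poles apart, at -0.10 ± 0.18.

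The probes beyond the brightest of each gene give a check that the choice of probe allows. There were 13 such tested probes, of 8 member genes. Of these, 11 were below 0, and those of Rrm2 and Ccnb1 were above it. The 11 include the dim Cdc20 probe that entered the test through Control, and no count was made without it. None of the 38 tested member probes passed the adjusted threshold, the lowest adjusted p being 0.8292 in limma.

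Crypt stem and progenitor genes were measured by 2 of 4 members. Cdca7, a chromatin factor and MYC target that is enriched in crypt progenitors, had Control levels of 9.30 to 9.91, median 9.57, and Eze levels of 9.74, 8.96, 9.45, 9.003 and 9.48 on Eze1 to Eze5. Eze2 and Eze4 lay under every Control array and the other 3 Eze arrays inside the Control range. Its fold change of -0.26 ± 0.13, or 0.833 on the linear scale, had the smallest unadjusted p of all members, 0.0684, and a limma adjusted p of 0.8292. The 95% interval ran from -0.55 to 0.022.

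Olfm4, a secreted glycoprotein that marks crypt base stem cells in human intestine and is also made by other gut cells, was the most variable member. Control levels reached from 8.25 to 9.25 with a median of 8.61, and Eze1 to Eze5 read 9.27, 7.50, 8.57, 8.46 and 8.39. The highest and the lowest of the 13 arrays were Eze1 and Eze2, both on slide 1. The fold change was -0.25 ± 0.23, with an interval from -0.74 to 0.25 and a limma adjusted p of 0.913, and it was 0.052 without Eze2. Lgr5, the receptor for R-spondins that defines crypt base stem cells, was detected on 3 Control arrays and 1 Eze array. Ascl2, a transcription factor of the same cells, was detected on 1 Control array. Neither was tested, and their levels (4.38 to 5.15 for Lgr5, 4.43 to 4.89 for Ascl2) lay near background in both groups.

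**Figure D2:**
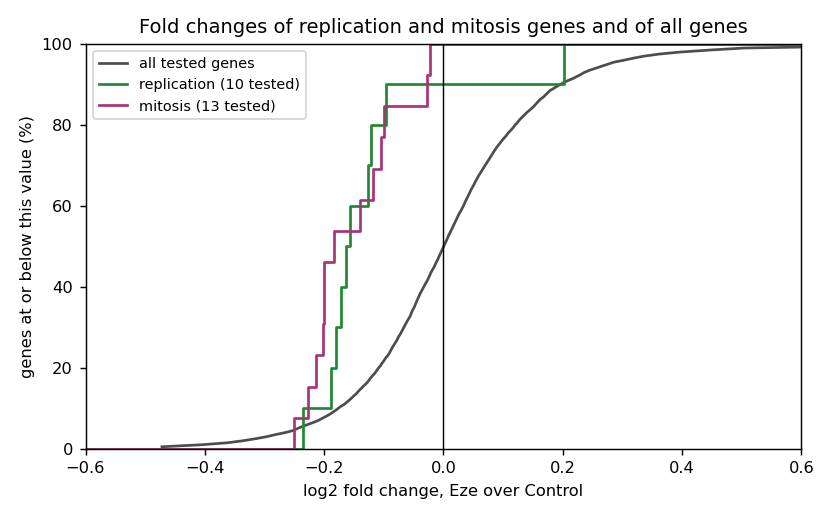
Cumulative share of genes, in percent, against the log2 fold change, Eze over Control. The grey line is all 8974 tested genes by their brightest probe, and the coloured steps are the replication and mitosis members. The medians of the steps lie left of the line, at -0.16 and -0.18 against 0.00031 for all genes, and Rrm2 is the last replication step, at 0.20.

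The members varied more between mice of 1 group than most genes did. The residual standard deviation, within group and slide, had a median of 0.322 over the tested members, from 0.217 to 0.486, against 0.220 over all tested genes, and 24 of 25 members were above that. The variation was shared. On Control1, 23 of 25 members were above their own mean over the 13 arrays, on Control5 22 and on Control7 24, while on Control2 6, on Control4 4 and on Control6 2 were. Control3 and Control8 lay between, with 15 and 17. Mice that ate regular chow thus included nearly all-high and nearly all-low arrays.

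The Eze group also held high and low arrays. On Eze1 23 of 25 members were above their own mean, on Eze5 12, on Eze3 7, and on Eze2 and Eze4 1 each. Among all tested genes the share above their own mean stayed between 45.7% and 55.4% on every array. The mean centred level of the 25 members, which is their average log2 distance from each gene's own mean, ran from -0.25 to 0.34 in Control (0.058 ± 0.237, SD, n = 8). In Eze it ran from -0.34 to 0.30 (-0.092 ± 0.257, SD, n = 5). The difference between the groups is smaller than the spread within either, and the groups overlap over most of their ranges.

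**Figure D3:**
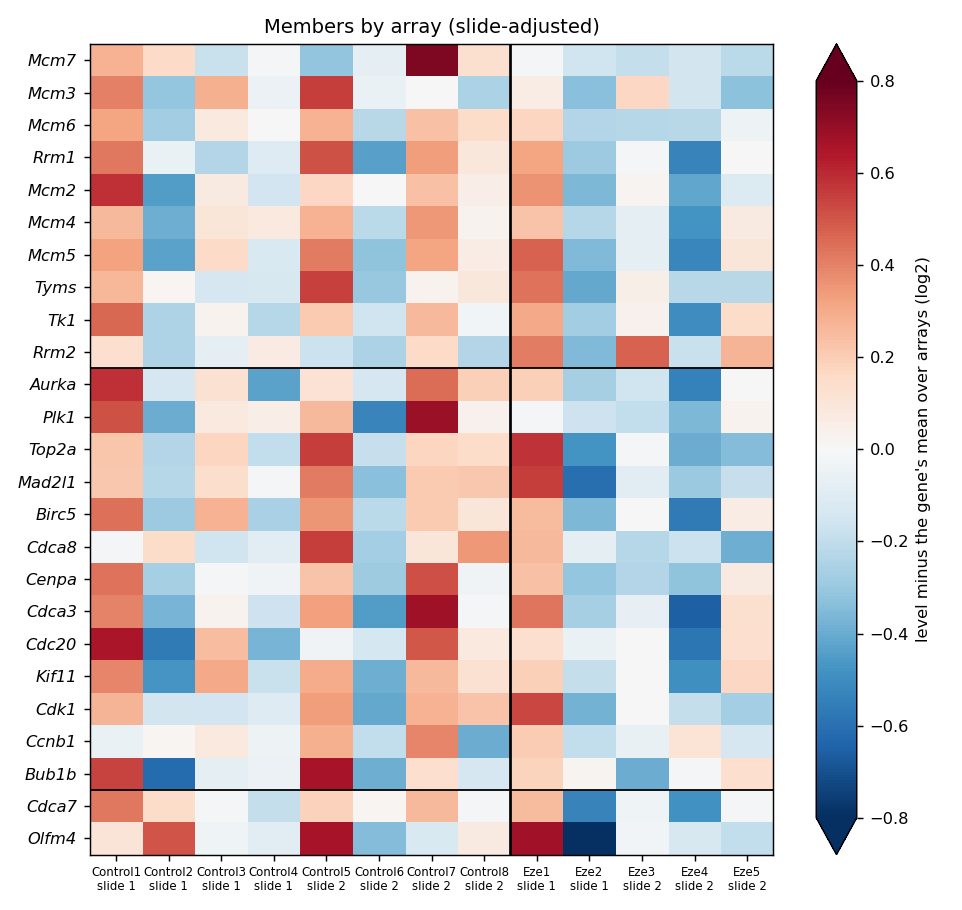
Slide-adjusted log2 level of each of the 25 tested members, as the distance from its own mean over the arrays, with arrays in columns and genes in rows by class, red for higher and blue for lower. Whole columns share a colour: Control1, Control5, Control7 and Eze1 are high in most members, and Control2, Control4, Control6, Eze2, Eze3 and Eze4 are low in most.

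Replication and mitosis genes were held apart and gave the same picture. Their mean centred levels had the same sign on 12 of 13 arrays. Eze3 was the exception, at 0.015 for replication and -0.11 for mitosis. For replication the Control arrays ran from -0.22 to 0.35 and the Eze arrays from -0.34 to 0.27. For mitosis they ran from -0.30 to 0.35 and from -0.34 to 0.29. In neither class did the groups separate. Cdca7 and Olfm4 departed from both classes on Control2, where their mean was 0.33 and those of replication and mitosis were -0.22 and -0.27. On Eze2 the pair was lower than both classes, at -0.81 against -0.30 and -0.26.

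**Figure D4:**
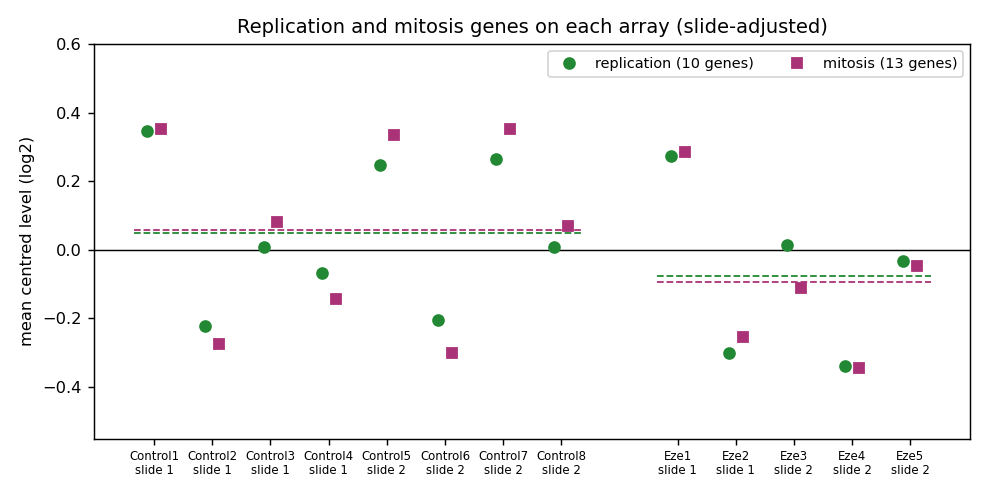
Mean centred log2 level of the 10 tested replication genes (green circles) and 13 mitosis genes (purple squares) on each of the 13 arrays, with dashed lines at the group means and the slide under each array. The replication and mitosis points lie close together on each array, and high and low arrays occur in both groups.

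Slides 1 and 2 are technical batches that each hold both groups, so the comparison was repeated within them. On slide 1 the median member was at -0.0087 and 13 of 25 were below 0, next to 51.9% of all tested genes. On slide 2 the median was -0.27 and 24 of 25 were below 0, next to 48.8% of all. By class, replication stood at -0.0028 and -0.27 on slides 1 and 2, mitosis at 0.0013 and -0.28, and the crypt pair at -0.28 and -0.23. The 2 Eze arrays of slide 1 were Eze1 and Eze2, which had 23 and 1 of 25 members above their means, so that slide's average rests on 1 high and 1 low mouse.

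No member passed the adjusted threshold on either slide in limma, where 0.0557% of genes on slide 1 and 0.1% on slide 2 did. At an unadjusted p under 0.05, 0 members were lower on slide 1 (1.42% of genes) and 1 was lower on slide 2 (1.73% of genes). That member was Top2a, at -0.42 with an unadjusted p of 0.0395 and a limma adjusted p of 0.896. For no member were all Eze arrays below all Control arrays of their slide, which was so for 0.178% of genes. Whether the slides differ in the effect was tested by the product of slide and treatment. It had an unadjusted p under 0.05 for 0 of 25 members (2.54% of genes) and an adjusted p under 0.10 for none (0% of genes), with a lowest member adjusted p of 0.9998 in limma. A difference between the slides was therefore not shown, at a median product of -0.23.

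Further genes of the same processes, listed by function, were read beside the members. Of 34 tested further replication genes, 26 were below 0, none passed the adjusted threshold and the median was -0.084. By slide their median was 0.012 on slide 1 and -0.19 on slide 2. Rfc4, a subunit of the clamp loader, had 0.42 ± 0.14 (unadjusted p 0.00998, limma adjusted p 0.599), and Gins3, of the replicative helicase, had -0.33 ± 0.16 (limma adjusted p 0.803). Those have the smallest p of their list and have opposite signs. Gins3 was detected on 5 Control arrays and 1 Eze array, so it entered the test through the group in which it was brighter and its value carries no weight. Of 24 further mitosis genes, 19 were below 0, none passed and the median was -0.13. By slide their median was 0.018 on slide 1 and -0.24 on slide 2. Melk, a kinase of dividing cells, had -0.31 ± 0.13 (limma adjusted p 0.757), but it was detected on 6 Control arrays and 1 Eze array and so entered in the same way. Ndc80, at -0.18, was detected on at most 6 Control arrays and 1 Eze array and entered in that way too. The counts and medians of both lists include Gins3, Melk and Ndc80 and were not taken without them. Bub3, of the spindle checkpoint, was detected on all 13 arrays and had -0.20 ± 0.10 (limma adjusted p 0.828).

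Further crypt genes were balanced over all arrays, with 6 of 12 below 0, none past the threshold and a median of -0.0045. On slide 1 their median was 0.059 with 4 of 12 below 0, and on slide 2 it was -0.17 with 8 of 12 below 0. Slc12a2, the basolateral sodium, potassium and chloride cotransporter rich in crypts, had -0.31 ± 0.15 (limma adjusted p 0.826), and Rgmb had -0.13 ± 0.16 (limma adjusted p 0.937). No probe of Rgmb was detected on more than 5 of 8 Control or 3 of 5 Eze arrays, so part of its levels are near background. Genes that restrain the cycle were near balance too, with 7 of 11 below 0, none past the threshold and a median of -0.025. Cdkn2b, an inhibitor of the cyclin D kinases, had 0.24 ± 0.12 (limma adjusted p 0.828), and Rb1, the retinoblastoma protein that holds E2F factors in check, had -0.16 ± 0.086 (limma adjusted p 0.838). On the arrays, the mean centred level of the inhibitors stayed between -0.11 and 0.11, a narrower band than that of the members.

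Markers of other cells in the tissue were read on the same arrays. Of 6 tested Paneth cell markers, whose cells sit at the crypt base, 6 were below 0 with a median of -0.35. On slide 1 their median was -0.44, and 4 of 6 were lower at an unadjusted p under 0.05 in limma, as were 1.42% of all tested genes. On slide 2 the median was -0.23 and none was, against 1.73% of all tested genes. Their summed level, as the mean centred level of the list, ran from -0.30 to 0.57 in Control and from -0.56 to 0.33 in Eze, and Mmp7 was detected on no array. Lyz1 had -0.30 ± 0.13 (limma adjusted p 0.745) and Pla2g2a -0.38 ± 0.18 (limma adjusted p 0.806). Of 6 tested T and NK cell markers, 6 were below 0 with a median of -0.45, -0.48 on slide 1 and -0.44 on slide 2, with levels from -0.63 to 0.69 in Control and from -0.80 to 0.58 in Eze, while Cd8a and Gzmb were detected on no array. Cd3e had -0.47 ± 0.25 (limma adjusted p 0.834) and Ccl5 -0.69 ± 0.38 (limma adjusted p 0.838). The medians of both lists had the sign of the members' median, none of their genes passed the threshold, and their part in the members' values was not tested.

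Exocrine pancreas genes, whose RNA can reach a sample of proximal intestine from adjoining tissue, were above 0 in 15 of 16 cases with a median of 0.59. Their mean centred level differed far more between mice than between groups, from -2.97 to 2.63 in Control and from -2.84 to 3.58 in Eze. Prss2 had 0.69 ± 0.71 (limma adjusted p 0.921) and Pnliprp2 0.41 ± 0.45 (limma adjusted p 0.928). Eze4, low in 24 of 25 members, was the array highest in these genes, and Control7, high in 24 of 25, was the lowest. Control5, high in 22 of 25, had the highest pancreas level of the Control arrays. Without the array highest in these markers in each group after slide adjustment (Control5 and Eze4), a choice made after seeing the data, 19 of 25 members were below 0 and the members' median was -0.053. By the level before slide adjustment the highest arrays were Control4 and Eze4, and without them 24 of 25 were below 0 with a median of -0.12. With the pancreas level as a covariate the median was -0.15. The part of pancreas RNA in the members' values was not tested beyond these fits.

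Other lists were nearer to 0. Absorptive enterocyte markers had a median of -0.00059 over 11 genes, with Vil1 at 0.12 ± 0.080 (limma adjusted p 0.867) and Apoc3 at -0.14 ± 0.10 (limma adjusted p 0.884). Goblet cell markers had -0.012 over 5 genes, with Tff3 at -0.13 ± 0.10 and Spdef at 0.098 ± 0.12. Enteroendocrine markers had -0.054 over 7 genes, with Sst at -0.39 ± 0.20 and Gip at -0.24 ± 0.13. The medians of these epithelial lists lay nearer to 0 than the members' median, and none of their genes passed the threshold.

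B cell markers had a median of 0.022 over 4 genes, with Cd79b at -0.14 ± 0.17 and Mzb1 at 0.16 ± 0.26. Smooth muscle markers had 0.00094 over 7 genes, with Cnn1 at -0.11 ± 0.13 and Des at -0.10 ± 0.14. Cnn1 was detected on 7 Control and 2 Eze arrays, so it entered the test through the group in which it was brighter. Erythroid markers, a sign of blood in the sample, had 0.39 over 3 genes, with Hba-a1 at 1.30 ± 0.30 (limma adjusted p 0.146) and Alas2 at 0.39 ± 0.19 (limma adjusted p 0.807). No gene of these 3 lists passed the threshold. The erythroid level ran from -0.77 to 0.25 in Control and from -0.13 to 0.62 in Eze, and its part in the members' values was not tested.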

How the data were processed

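Illumina MouseRef-8 v2.0 bead arrays measured proximal small intestine RNA of 8 Control and 5 Eze mice. In the deposited unnormalized table each array has, per the file headers, a signal intensity and a detection p-value per probe. A second deposited table holds the authors' processed intensities on a linear scale, with column medians between 236.090 and 236.297. Whether they were centred or offset is not stated. Per the series' design text, the authors used quantile normalization and Combat batch correction. The sources used here do not state versions of those programs.

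Background was removed by normexp, with negative controls inferred from detection p-values, and after an offset of 16 and quantile normalization log2 was taken (function neqc of limma 3.58.1 in R 4.3.3). A probe was tested if 5 or more of the 13 arrays, in whatever group, had a detection p under 0.05, which kept 11887 of 25697 probes (46.3%) and 8974 genes. A linear model of slide and group was fitted by lmFit, with variances moderated by eBayes along an intensity trend. Benjamini-Hochberg adjustment ran over all 11887 tested probes, and an adjusted p under 0.10 counted as passing. Each gene is given by its brightest tested probe, errors are standard errors of the moderated fit, and no probe's level was set against another's. Lists are described by counts and medians, with no test.

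Symbols in the table were updated through RefSeq's gene table of GRCm38.p6. Symbols were current for 20439 probes, replaced for 4134 and left as filed for 1104, and 20 probes with a date as symbol were not named. Named members were Mcm2, Mcm5, Pcna, Tyms, Rrm2, Mki67, Top2a, Ccnb1, Cdk1, Plk1, Cdca7, Olfm4, Lgr5 and Ascl2, then the 3 further tested replication genes and 3 mitosis genes with the smallest p, and from each other list the 2 genes with the smallest p. Values of other members are given briefly. Members and lists were chosen with earlier results of these data known. Replicate numbers name different mice. The correlations between same-numbered arrays' deviations from the fit of slide and group, taken across probes, ran from -0.422 to 0.365, so the numbers were not taken to pair them.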

Additional observations from a re-analysis of the deposited data

Results flagged for a closer look

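Cdc20, an activator of the anaphase-promoting complex, was lower on Eze4 than on the other Eze arrays: its slide-adjusted level was 8.155 (log2), the nearest Eze array stood at 8.679 and the highest at 8.862. That gap is 0.741 of the group's range, above the 95% critical value of Dixon's test for 5 samples. Of 50 groups of arrays examined, this was the 1 found, and chance alone gives about 1 in 20. Eze4 was below the mean in 24 of 25 members, and the Control arrays of Cdc20 ran from 8.163 to 9.382. These are values of the brightest Cdc20 probe. Of its other tested probes, Eze4 was lowest of the Eze arrays by 1 (6.975, with Eze5 at 7.026) and not by the others, where Eze2 was lowest (7.215 against 7.242, and 4.349 against 4.627). The last of these probes was detected on only 1 Eze array, so its values are near background and their order carries no weight.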

How the results depend on the processing

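Under 33 other settings no member passed the adjusted threshold in limma, and the lowest adjusted p of a member was 0.404, without Eze1. The replication median stayed below 0 in all 33 (-0.27 to -0.0028, the last on slide 1 and close to 0). The crypt median did so in all 33 (-0.49 to -0.047) and the mitosis median in 32 (-0.29 to 0.0013, the last on slide 1). These settings are not separate checks. Changes to the eBayes step cannot move a fold change, and the fits without 1 array share most of their arrays. Leaving out 1 array at a time gave -0.27 to -0.075 for replication, -0.29 to -0.091 for mitosis and -0.45 to -0.047 for the crypt pair. Of 527 values of named members, 508 kept their sign and 19 did not, and the cause was not tested. On slide 1 alone the log2 fold change was 0.0776 for Mcm5, 0.00765 for Tyms, 0.0574 for Top2a, 0.00131 for Ccnb1, 0.110 for Cdk1 and 0.117 for Cdca8. With position as a covariate it was 0.0567 for Mcm3, 0.0443 for Tyms, 0.0785 for Ccnb1 and 0.0149 for Olfm4. Mcm5 was at 0.0367 without Control5 and Eze4. Ccnb1 was at 0.0101 with median scaling, where the median of all genes was 0.094, and at 0.0173 as the mean over its probes. With single arrays left out, Ccnb1 ran from -0.099 to 0.040, Cdk1 from -0.29 to 0.00064 and Olfm4 from -0.51 to 0.052. Mcm5 ran from -0.30 to -0.016, Tyms from -0.28 to -0.015, Top2a from -0.44 to -0.10 and Rrm2 from 0.11 to 0.36, with no change of sign. In a fit with a replicate block, over replicates 1 to 5, 23 of 25 members were below 0. The class medians were -0.14, -0.17 and -0.49 for replication, mitosis and crypt in turn. In that fit 0 members passed and 1 had an unadjusted p under 0.05 in limma, with the share of all genes not counted. That pairing changed no call. Probes near background (Mcm7 and the 7 untested members with a probe) limit what can be said of those genes.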
